A study of Mus musculus with 8 samples.

Results

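Liver RNA was examined here for the enzymes and regulators of gluconeogenesis, a set of 10 genes taken by name out of the 22180 genes measured. The enzymes and their transporter were Pcx, Pck1, Fbp1, G6pc and Slc37a4, and the regulators were Creb1, Crtc2, Ppargc1a, Sirt1 and Klf15. Each of the 10 genes had 1 transcript cluster (the group of probes that reads 1 gene) whose annotation named that gene alone, and none was missing. The livers came from 8 male offspring of C57BL/6J dams, with 1 array per liver. HFD PN offspring (n = 4) were nursed by dams that ate the D12492 diet, with 60% of calories from fat, during lactation. Ctrl PN offspring (n = 4) were nursed by dams on standard chow, which the labels and the study's methods name differently. Both groups were weaned onto normal chow, and their livers were taken at 24 weeks of age in a non-fasted state. The labels name no engineered allele and no treatment besides the diet of the dams. The labels do not tie the livers to litters, so the p-values measure the spread between these livers.

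Gluconeogenesis makes new glucose from lactate, glycerol and amino acids, and the liver uses it to hold blood glucose during fasting. Its special enzymes bypass the steps of glycolysis that run one way only, and the last of them releases free glucose inside the endoplasmic reticulum. Glucagon raises cyclic AMP in the hepatocyte, which activates the transcription factor CREB and its coactivator CRTC2, and these turn on Ppargc1a, Pck1 and G6pc. Insulin after a meal opposes that program, so that these genes are normally lower in a fed liver than in a fasted one.

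Pck1 and G6pc had the largest mean differences of the 10 genes, 0.49 and 0.42 on the log2 scale in the direction of HFD PN, and for both genes the livers of the groups overlapped. Creb1 was the single gene whose groups did not overlap, and its HFD PN mean was lower, with a log2 difference of -0.24. In limma, 0 of the 10 genes passed an unadjusted p of 0.01, against 0.555% of all genes. At an unadjusted p under 0.05, 1 of the 10 passed (Creb1), against 3.49% of all genes and 2.36% in the lower direction. No gene of the 22180 passed a Benjamini-Hochberg adjusted p of 0.05 in limma (0.00%), and the adjusted p of each of the 10 genes was 0.99988. The groups did not overlap for 1 of the 10 genes and for 2.82% of all genes. Differences were above 0 for 7 of the 10, against 44.1% of all genes, and their median was 0.16 against -0.02 over all genes. That count of 7 includes Crtc2, whose means were almost equal. In bulk liver RNA, fewer cells of a type and less RNA per cell cannot be told apart.

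Pearson's r between arrays, taken across genes, was 0.986 to 0.991 among 6 of them. It was lower for HFD PN replicate 1 (0.945 to 0.968) and, against those 6, for Ctrl PN replicate 3 (0.969 to 0.979). These arrays held the lowest pair of values for 52.8% of the 5794 genes with a mean level of at least 3. Of the 9 gluconeogenic genes at that level, 3 had their lowest pair of values there (Pcx, Slc37a4 and Crtc2), and so did Ppargc1a, whose mean level was below 3. The part of these arrays in each result was not tested, so values are also given below without both of them. The tissue label was checked against marker genes. The mean level of 11 hepatocyte markers lay between 9.94 and 10.36 on the log2 scale in every liver, and all 5 kidney proximal tubule markers were under 1.55, the median of all clusters.

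**Figure D1:**
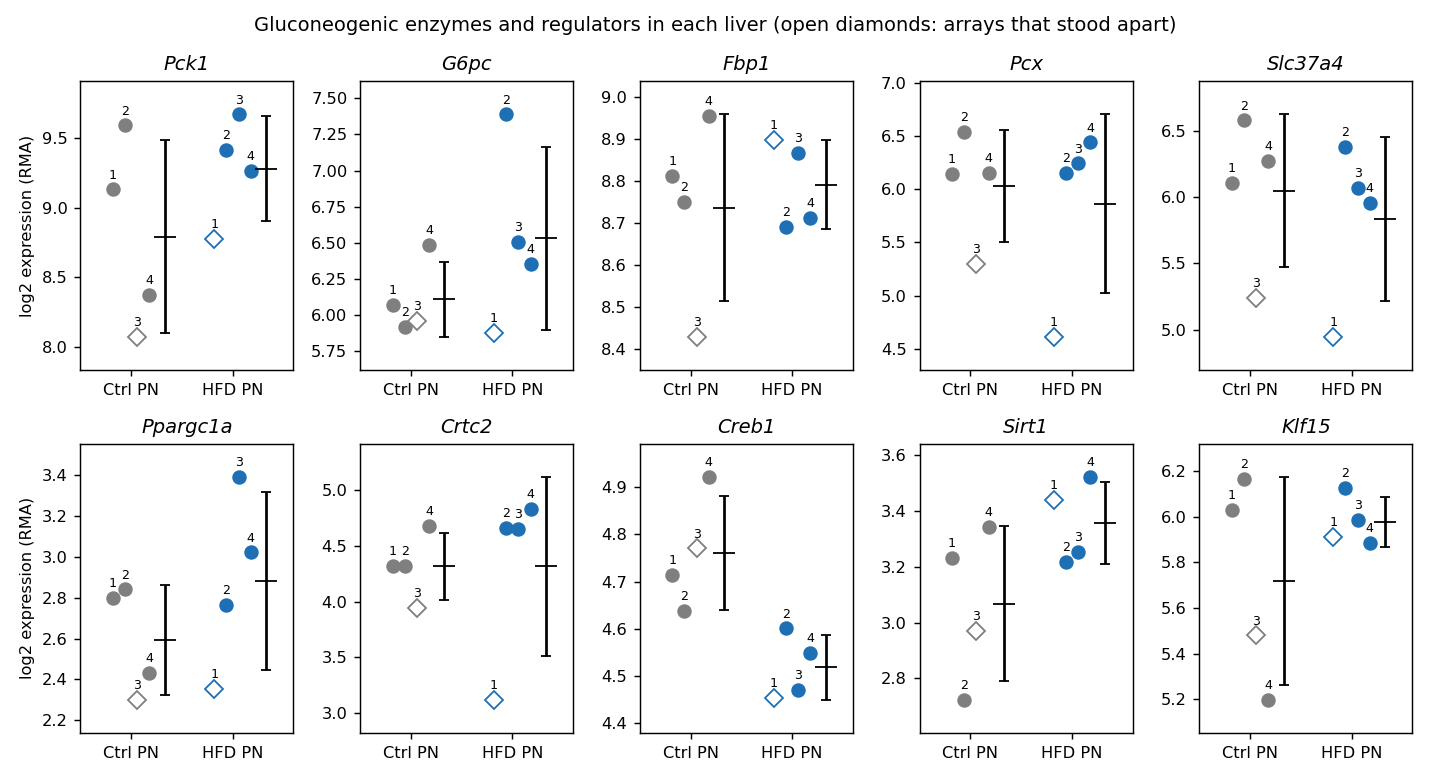
Log2 level of each of the 10 gluconeogenic genes in each liver, with Ctrl PN and HFD PN side by side, replicate numbers at the points and a bar at each group mean. Creb1 is the 1 panel in which the groups do not overlap, and HFD PN replicate 1 lies far below the other HFD PN livers for Pcx (4.62) and Crtc2 (3.12).

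Pcx encodes pyruvate carboxylase, the mitochondrial enzyme that turns pyruvate into oxaloacetate at the start of the pathway. Its log2 levels in Ctrl PN replicates 1 to 4 were 6.14, 6.54, 5.30 and 6.15, and in HFD PN replicates 1 to 4 they were 4.62, 6.15, 6.24 and 6.44. The low livers were those of the arrays that stood apart, and the other livers of both groups overlapped. The difference was -0.17 (SE 0.42, 95% interval -1.11 to 0.77, limma unadjusted p = 0.693). It was 0.0014 without both arrays, with an interval from -0.31 to 0.32. With HFD PN replicate 1 alone left out it was 0.25, and with Ctrl PN replicate 3 alone left out it was -0.41.

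Pck1 encodes the cytosolic phosphoenolpyruvate carboxykinase, which makes phosphoenolpyruvate from oxaloacetate and is the enzyme most often taken as the transcriptional readout of the pathway. In Ctrl PN livers its log2 levels were 9.13, 9.59, 8.07 and 8.37, and in HFD PN livers they were 8.77, 9.42, 9.67 and 9.27. Ctrl PN replicates 3 and 4 were below every HFD PN liver, whereas Ctrl PN replicate 2 was above all but 1 of them. The means were 9.28 ± 0.38 in HFD PN and 8.79 ± 0.70 in Ctrl PN (SD, n = 4). The difference of 0.49 (SE 0.33, 95% interval -0.27 to 1.25) did not pass the test (limma unadjusted p = 0.178, exact two-sided permutation p = 0.257). It was 0.25 without Ctrl PN replicate 3 and 0.76 without Ctrl PN replicate 2 (limma unadjusted p = 0.0332). Without both arrays that stood apart it was 0.42 (limma unadjusted p = 0.151). The permutation test cannot give a p below 0.0286 with 4 livers against 4.

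Fbp1 encodes fructose-1,6-bisphosphatase, the liver form of the enzyme that opposes phosphofructokinase. It was the most even of the enzymes, with log2 levels of 8.81, 8.75, 8.43 and 8.95 in Ctrl PN and 8.90, 8.69, 8.87 and 8.71 in HFD PN. All HFD PN livers lay inside the Ctrl PN range, and Ctrl PN replicate 3 was the lowest liver. The difference was 0.055 (SE 0.13, 95% interval -0.23 to 0.34, limma unadjusted p = 0.674), the narrowest interval among the enzymes. Without both arrays that stood apart it was -0.08 (limma unadjusted p = 0.456).

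G6pc encodes the catalytic subunit of glucose-6-phosphatase, the enzyme of the last step. The log2 levels were 6.07, 5.92, 5.96 and 6.48 in Ctrl PN and 5.88, 7.39, 6.51 and 6.35 in HFD PN. HFD PN replicate 2 was well above every other liver, and HFD PN replicate 1 was the lowest of all 8. The difference was 0.42 (SE 0.29, 95% interval -0.24 to 1.08, limma unadjusted p = 0.181, exact permutation p = 0.343). Without HFD PN replicate 2 it was 0.14, and without HFD PN replicate 1 it was 0.64 (limma unadjusted p = 0.0289). Without both arrays that stood apart it was 0.59 (limma unadjusted p = 0.0484), where 8.38% of all genes passed 0.05.

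Slc37a4 encodes the transporter that brings glucose-6-phosphate to that enzyme across the membrane of the endoplasmic reticulum. Its levels were 6.11, 6.58, 5.24 and 6.27 in Ctrl PN and 4.95, 6.37, 6.07 and 5.96 in HFD PN on the log2 scale. As for Pcx, the arrays that stood apart held the low values and the other livers overlapped. The difference of -0.21 (SE 0.36, 95% interval -1.02 to 0.60) did not pass the test, with an unadjusted p of 0.565 in limma. It was -0.19 without both arrays, 0.08 without HFD PN replicate 1 alone and -0.48 without Ctrl PN replicate 3 alone.

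Among the regulators, Creb1 encodes CREB itself, the factor that protein kinase A phosphorylates when cyclic AMP rises. Its log2 levels were 4.71, 4.64, 4.77 and 4.92 in Ctrl PN livers and 4.45, 4.60, 4.47 and 4.55 in HFD PN livers. Every HFD PN liver was below every Ctrl PN liver, although HFD PN replicate 2 and Ctrl PN replicate 2 were close. The group means were 4.52 ± 0.07 and 4.76 ± 0.12 (SD, n = 4), so that the Ctrl PN level was 1.18 times that of HFD PN. The difference was -0.24 (SE 0.09, 95% interval -0.46 to -0.03, limma unadjusted p = 0.031), and the exact permutation p of 0.0286 is the smallest that 4 against 4 can give. HFD PN below Ctrl PN without overlap was found for 2.10% of all genes. Without both arrays that stood apart the difference was -0.22 (limma unadjusted p = 0.0803) and the groups still did not overlap. The unadjusted p passed 0.05 when Ctrl PN replicate 1, Ctrl PN replicate 2 or HFD PN replicate 2 was left out (0.0236 to 0.0445 in limma), and it lay between 0.0523 and 0.0843 for each of the other 5 livers left out. After quantile normalization the difference was -0.28, the groups overlapped and the limma p was 0.14.

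Crtc2 encodes the coactivator that moves into the nucleus under glucagon and binds CREB. In Ctrl PN its log2 levels were 4.32, 4.32, 3.94 and 4.68, and in HFD PN they were 3.12, 4.66, 4.65 and 4.83. HFD PN replicate 1 was far below its group, while the remaining HFD PN livers sat at or above most Ctrl PN livers. Both group means were 4.32 (SE of the difference 0.36, 95% interval -0.82 to 0.82). Without HFD PN replicate 1 the difference was 0.40 (limma unadjusted p = 0.0359, where 9.39% of all genes passed 0.05), and without both arrays it was 0.27 (limma unadjusted p = 0.0592).

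Ppargc1a encodes PGC-1α, a coactivator that CREB induces and that acts with other factors at the Pck1 and G6pc genes. Its log2 levels were 2.80, 2.84, 2.30 and 2.43 in Ctrl PN and 2.35, 2.77, 3.39 and 3.02 in HFD PN. HFD PN replicates 3 and 4 were above all Ctrl PN livers, and HFD PN replicate 1 was among the lowest. The difference was 0.29 (SE 0.22, 95% interval -0.22 to 0.80, limma unadjusted p = 0.228). It was 0.12 without HFD PN replicate 3, 0.47 without HFD PN replicate 1 (limma unadjusted p = 0.0323) and 0.37 without both arrays that stood apart (limma unadjusted p = 0.0633).

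Sirt1 encodes a NAD-dependent deacetylase, of which PGC-1α and CRTC2 are substrates. Its log2 levels were 3.23, 2.72, 2.97 and 3.34 in Ctrl PN and 3.44, 3.22, 3.25 and 3.52 in HFD PN. The HFD PN livers were close together at the upper end, and Ctrl PN replicate 1 and 4 reached into their range. The difference of 0.29 had a SE of 0.15 and a 95% interval from -0.05 to 0.63 (limma unadjusted p = 0.085, exact permutation p = 0.143). Leaving out Ctrl PN replicate 4 gave 0.38 (limma unadjusted p = 0.0343), and leaving out Ctrl PN replicate 2 gave 0.18. Without both arrays that stood apart the difference was 0.23 (limma unadjusted p = 0.206).

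Klf15 encodes a zinc finger factor that glucocorticoids and fasting induce and that favours the breakdown of amino acids for gluconeogenesis. The log2 levels were 6.03, 6.16, 5.48 and 5.20 in Ctrl PN and 5.91, 6.13, 5.98 and 5.89 in HFD PN. Ctrl PN replicates 3 and 4 were low, and the other 6 livers lay together. The SD was 0.46 in Ctrl PN and 0.11 in HFD PN. The difference of 0.26 (SE 0.21, 95% interval -0.21 to 0.73) did not pass the test (limma unadjusted p = 0.243). It was 0.09 without Ctrl PN replicate 4 and 0.41 without Ctrl PN replicate 2 (limma unadjusted p = 0.0684). Without both arrays that stood apart it was 0.20 (limma unadjusted p = 0.396).

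**Figure D2:**
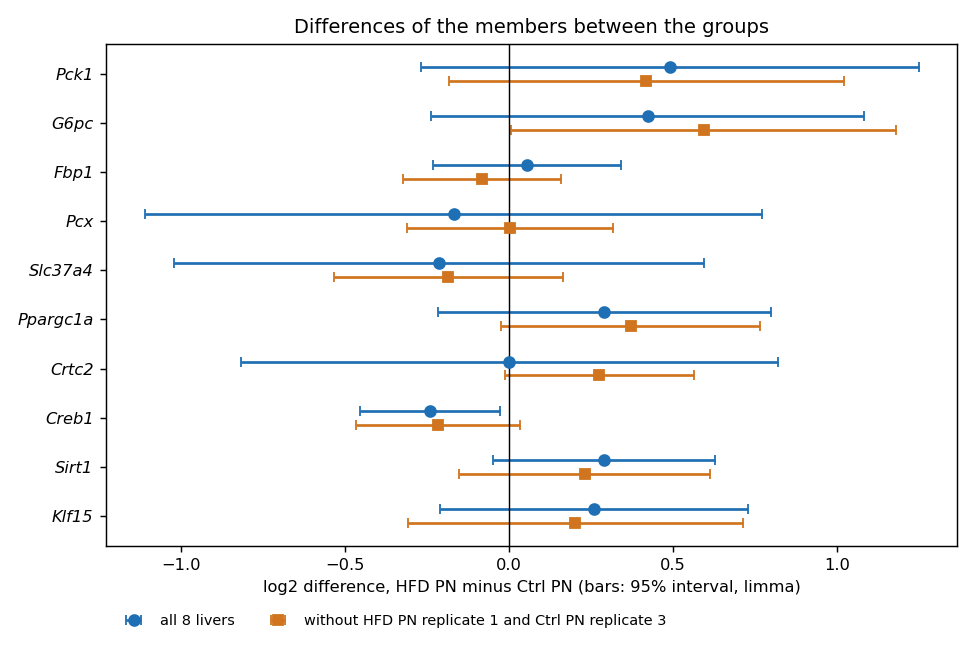
Log2 difference, HFD PN minus Ctrl PN, of each gluconeogenic gene with its 95% limma interval, over all 8 livers and without HFD PN replicate 1 and Ctrl PN replicate 3. The interval of Creb1 lies below 0 over all 8 livers (-0.46 to -0.03), and that of G6pc lies just above 0 in the smaller set (0.0053 to 1.18), while the other intervals include 0 in both.

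The count of genes at an unadjusted p under 0.05 in limma therefore moved with single livers. It was 3 without HFD PN replicate 1 (G6pc, Ppargc1a and Crtc2, all higher in HFD PN), 2 without Ctrl PN replicate 2 (Creb1 and Pck1), 1 without both arrays that stood apart (G6pc), and 0 without Ctrl PN replicate 3, HFD PN replicate 3 or HFD PN replicate 4. The share of all genes at that threshold was 9.39% without HFD PN replicate 1, 3.61% without Ctrl PN replicate 2 and 8.38% without both arrays. It was 2.65%, 3.31% and 2.43% without Ctrl PN replicate 3, HFD PN replicate 3 and HFD PN replicate 4.

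How the 10 genes varied together was described over the 8 livers for all 45 pairs. No pair passed an adjusted p of 0.05, and 6 pairs had an unadjusted exact permutation p under 0.05 for Pearson's r. The livers share 2 groups and a pair of arrays that stood apart, so each r is given again without the livers farthest from the median of the first gene. Pck1 and Ppargc1a had r = 0.852 (exact permutation p = 0.007, adjusted 0.111, n = 8) and rho = 0.857 (exact permutation p = 0.0107, adjusted 0.412), with r = 0.808 without the 2 farthest livers and r = 0.819 within the groups. For that pair r was 0.789 (exact permutation p = 0.0917, adjusted 0.589) and rho was 0.714 without the arrays that stood apart. Pck1 and Klf15 had r = 0.852 (exact permutation p = 0.01, adjusted 0.111) and rho = 0.738 (exact permutation p = 0.0458, adjusted 0.412), with r = 0.553 without the 2 farthest livers. For Klf15 the farthest livers were Ctrl PN replicates 3 and 4, low in both genes. For Pck1 and Klf15, r was 0.82 within the groups. Without the arrays that stood apart r was 0.91 (exact permutation p = 0.0472, adjusted 0.425) and rho was 0.543. In HFD PN, Klf15 spanned only 5.89 to 6.13. Replicates 2 and 3 were the higher and replicates 1 and 4 the lower HFD PN livers for both genes, in an otherwise different order. G6pc did not follow Pck1 as closely, with r = 0.314 (exact permutation p = 0.463, adjusted 0.884) and rho = 0.357 (exact permutation p = 0.389, adjusted 0.73), and r = 0.375 without the 2 farthest livers.

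Pcx and Slc37a4 had the highest r among these examples, 0.926 (exact permutation p = 0.006, adjusted 0.111), with rho = 0.619 (exact permutation p = 0.115, adjusted 0.73). The farthest livers were the arrays that stood apart, and r was 0.238 without them, so the relation rests on those livers. The same holds for Pcx and Crtc2, with r = 0.91 (exact permutation p = 0.009, adjusted 0.111) and rho = 0.548 (exact permutation p = 0.171, adjusted 0.73), where r was -0.102 without those livers. Creb1 ran the other way from Pck1, with r = -0.625 (exact permutation p = 0.099, adjusted 0.472) and rho = -0.524 (exact permutation p = 0.197, adjusted 0.73). That r was 0.144 without the livers farthest for Pck1, Ctrl PN replicates 3 and 4, and -0.91 without the arrays that stood apart, so it too depends on which livers are kept.

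**Figure D3:**
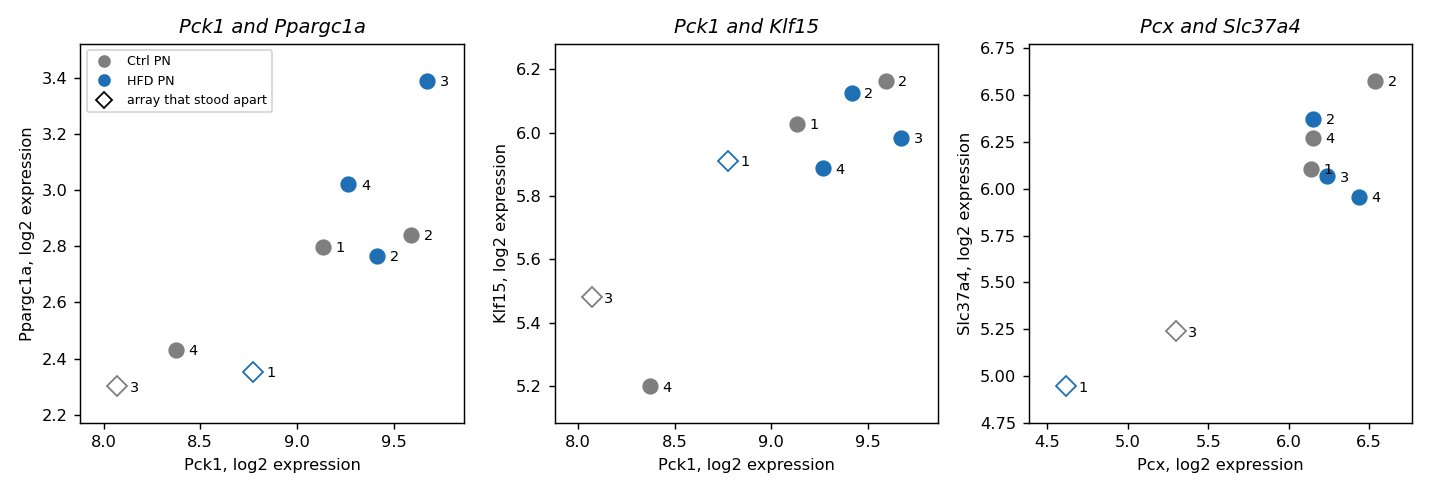
Log2 levels of pairs of gluconeogenic genes in the 8 livers, 1 point per liver with its replicate number and the colour of its group. Pck1 has r = 0.852 with Ppargc1a and with Klf15, where r is 0.808 and 0.553 without Ctrl PN replicates 3 and 4, and the relation of Pcx and Slc37a4 (r = 0.926) rests on HFD PN replicate 1 and Ctrl PN replicate 3 at the low end.

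The promoters of Pck1 and of Ppargc1a and Klf15, the genes with the highest r to Pck1 among the 10, are shown because CREB acts through the cyclic AMP response element, whose core letters are TGACG. Each sequence is the 250 bases before the RefSeq start site (build GRCm38.p6), written in the direction of the gene, with TGACG and its reverse complement CGTCA in capitals. The windows are chr2:173152823-173153072 (plus strand) for Pck1, chr5:51567726-51567975 (minus strand) for Ppargc1a and chr6:90462326-90462575 (plus strand) for Klf15.
Pck1: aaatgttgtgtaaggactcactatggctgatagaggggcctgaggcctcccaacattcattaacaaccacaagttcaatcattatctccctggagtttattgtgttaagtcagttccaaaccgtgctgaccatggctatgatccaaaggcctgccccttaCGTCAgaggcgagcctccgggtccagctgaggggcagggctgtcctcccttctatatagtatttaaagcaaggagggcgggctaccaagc
Ppargc1a: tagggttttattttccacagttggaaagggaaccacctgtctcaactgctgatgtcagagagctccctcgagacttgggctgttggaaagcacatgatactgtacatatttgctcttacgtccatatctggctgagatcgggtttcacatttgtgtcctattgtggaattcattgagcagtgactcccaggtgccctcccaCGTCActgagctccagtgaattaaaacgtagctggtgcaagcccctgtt
Klf15: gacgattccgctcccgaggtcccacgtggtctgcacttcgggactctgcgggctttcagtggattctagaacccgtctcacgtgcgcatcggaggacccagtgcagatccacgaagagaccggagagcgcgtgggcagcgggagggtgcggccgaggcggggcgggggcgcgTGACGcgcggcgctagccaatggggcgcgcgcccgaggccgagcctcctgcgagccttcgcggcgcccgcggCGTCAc
The match in Pck1 begins 90 bases before the start and that in Ppargc1a 49 bases before it, both on the opposite strand. Klf15 has 1 match 78 bases before the start and 1 that begins 6 bases before it. On either strand, TGACG was found in 5 of the 9 genes with a promoter entry (also Sirt1 and Slc37a4) and in 6 of their 12 windows, against 17.8% of 32851 windows of the same length. Overlapping windows of Slc37a4 count 1 of these sites in both. It was not found in the windows of G6pc, Fbp1, Pcx and Creb1. The full palindromic element TGACGTCA, which contains TGACG, was in 0 of the 12 windows and in 1.55% of all windows. GTAAACA, a core bound by FoxO and FoxA factors, was in 0 of the 12 and in 3.17% of all. The CCAAT letters were found for Fbp1, G6pc, Klf15 and Pcx, in 4 of the 12 windows, and in 33.8% of all windows. A match is a description of the letters and not a measured binding site.

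Genes with the pattern most like that of Pck1, G6pc and Ppargc1a were then sought among the 5604 or 5605 other named genes with a mean level of at least 3, by Pearson's r over the 8 livers. They are the highest of many and are given as a description. For Pck1 they were Hspa5 (r = 0.984, rho = 0.976), Slc25a15 (r = 0.968, rho = 0.929) and Stip1 (r = 0.968, rho = 0.952). Without Ctrl PN replicates 3 and 4, the livers farthest from the median of Pck1, r was 0.963 for Hspa5, 0.872 for Slc25a15 and 0.957 for Stip1. G6pc was most like Med13l (r = 0.953, rho = 0.762), Bhlhe40 (r = 0.951, rho = 0.905) and Rpp14 (r = 0.936, rho = 0.762), and without HFD PN replicates 1 and 2 these r were 0.886, 0.856 and 0.825. Ppargc1a was most like Caprin1 (r = 0.974, rho = 0.929), Ambra1 (r = 0.968, rho = 0.952) and Copg1 (r = 0.960, rho = 0.833), with r of 0.936, 0.939 and 0.898 without Ctrl PN replicate 3 and HFD PN replicate 3. None of these 9 genes passed an unadjusted p of 0.05 between the groups in limma. The 3 genes of one set did not recur in another.

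Around the 10 genes, the wider pathway was read from lists of genes by role. Of 20 measured genes for the entry of lactate, glycerol and amino acids, 0 passed an unadjusted p of 0.05 in limma in either direction, and their median difference was 0.0045. Tat, which breaks down tyrosine and is induced by glucocorticoids and fasting, had log2 levels from 9.24 to 11.01 in Ctrl PN and from 10.21 to 10.75 in HFD PN. Its HFD PN livers lay inside the Ctrl PN range, and the difference was 0.36 (limma unadjusted p = 0.295), or 0.16 without both arrays that stood apart. Without Ctrl PN replicate 2 it was 0.66 (limma unadjusted p = 0.027), and leaving out Ctrl PN replicate 3 gave 0.07. In the same list, the differences of Ldha, which interconverts lactate and pyruvate, and Gpd2, which oxidises glycerol 3-phosphate, were 0.17 and -0.24, and neither passed the test.

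Of 10 measured genes of the reversible steps and the paralogues of the bypass enzymes, 0 passed 0.05 (median difference -0.02), Pgm2 having the smallest p (0.25, limma unadjusted p = 0.0798). G6pc2, the islet paralogue of G6pc, and G6pc3, the widely expressed one, had differences of -0.09 and 0.15. The means of G6pc2 were 1.29 in HFD PN and 1.38 in Ctrl PN, under 1.55, the median of all clusters. Of 12 genes of glycolysis and pyruvate oxidation, 0 passed (median 0.12). That list holds enzymes and activators that run against gluconeogenesis together with inhibitors that favour it (Pdk1, Pdk2, Pdk4 and Gckr), so its median joins opposite roles. The smallest p belonged to Pdk4, the kinase that shuts off pyruvate dehydrogenase (0.31, limma unadjusted p = 0.12). Pfkfb2, which sets fructose 2,6-bisphosphate, had 0.32, and Pdhb, a pyruvate dehydrogenase subunit, had 0.24. Without HFD PN replicate 1, 3 of these 12 passed 0.05: Gckr, which holds glucokinase in the nucleus (0.60), Pfkfb2 (0.52) and Mlxipl, the carbohydrate response factor (0.92), against 9.39% of all genes. Over all 8 livers Gckr was at 0.26 (limma unadjusted p = 0.467) and Mlxipl at 0.47 (limma unadjusted p = 0.352).

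Of 26 genes of glucagon and cyclic AMP signalling, 0 passed 0.05 over all 8 livers in limma (median 0.0094). Nr4a1, an immediate target of CREB, had -0.17, Prkar2b, a regulatory subunit of protein kinase A, had 0.28, and Pde4d, which degrades cyclic AMP, had -0.09. The means of Pde4d, 1.22 in HFD PN and 1.31 in Ctrl PN, were also under 1.55. The glucagon receptor gene Gcgr was at 0.15 over all 8 livers (limma unadjusted p = 0.566). It was among 4 that passed without HFD PN replicate 1 (0.40, limma unadjusted p = 0.018, with 9.39% of all genes passing) and was at 0.31 (limma unadjusted p = 0.0328) without both arrays. Of 23 other transcriptional regulators of Pck1 and G6pc, 0 passed over all 8 livers (median 0.0094). Over the same livers 2 passed after quantile normalization (3.91% of all genes), 2 with array weights (8.51%) and 1 with the replicate number as a block (2.86%). Without HFD PN replicate 1, 5 passed, against 9.39% of all genes. Zbtb16, a zinc finger repressor that glucocorticoids induce, had the smallest p of the list over all 8 livers, with levels from 3.17 to 4.16 in Ctrl PN and from 3.05 to 5.12 in HFD PN. The lowest liver of the 8 was in HFD PN, and the difference was 0.86 (SE 0.44, limma unadjusted p = 0.0826), or 1.33 (limma unadjusted p = 0.000419) without both arrays that stood apart. In that smaller set 2.24% of all genes passed 0.01 and 8.38% passed 0.05, against 0.555% and 3.49% over all 8 livers. Foxo1, the factor that insulin keeps out of the nucleus, was at 0.13 over all 8 livers (limma unadjusted p = 0.648). It was at 0.42 (limma unadjusted p = 0.0144) without HFD PN replicate 1 and at 0.33 (limma unadjusted p = 0.0258) without both arrays. Esrra, a nuclear receptor that works with PGC-1α, had -0.34 over all 8 livers (limma unadjusted p = 0.128), and Ppargc1b, the gene of the related coactivator PGC-1β, had 0.23.

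Genes known to be high in the fasted liver gave 3 of 12 measured at an unadjusted p under 0.05, all higher in HFD PN, against 1.13% of all genes in that direction. The median difference of the list was 0.06, like that of the genes high in the fed liver (0.06), and 3 of the 12 were below 0. Igfbp1 and Angptl4 were known from earlier results of these data when the lists were written. The count is therefore a description of the list and is not independent of these data. Irs2, the insulin receptor substrate that CREB and FoxO1 induce in fasting, had log2 levels of 2.93, 3.30, 1.82 and 2.82 in Ctrl PN and 2.87, 3.78, 3.92 and 3.93 in HFD PN. HFD PN replicates 2, 3 and 4 were above every Ctrl PN liver, and HFD PN replicate 1 was not. The difference was 0.91 (SE 0.34, limma unadjusted p = 0.0275, exact permutation p = 0.0857). It was 0.86 (limma unadjusted p = 0.000144) without both arrays that stood apart and 0.60 (limma unadjusted p = 0.0586) without Ctrl PN replicate 3. The limma p was between 0.0623 and 0.0698 without HFD PN replicate 2, 3 or 4. Without both arrays 2.24% of all genes passed 0.01, against 0.555% over all 8 livers.

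Igfbp1, which binds IGFs in plasma and falls under insulin, ranged from 3.72 to 4.04 in Ctrl PN and from 4.28 to 4.64 in HFD PN, so that the groups did not overlap. Its limma unadjusted p of 0.000912 was the only one under 0.01 among the pathway lists. The log2 difference of Igfbp1 was 0.59, and its adjusted p in limma was 0.99988. Over all genes, 0.194% were higher at an unadjusted p under 0.01, and the groups did not overlap for 2.82%. Angptl4, an inhibitor of lipoprotein lipase, differed by 0.59 (limma unadjusted p = 0.0452). Without both arrays it differed by 0.90 (limma unadjusted p = 0.000824), where 2.24% of all genes passed 0.01. Angptl4 passed 0.05 without Ctrl PN replicate 3 or HFD PN replicate 1 and had a limma p between 0.0723 and 0.119 without any other liver. The count in this list was 1 when HFD PN replicate 2, 3 or 4 was left out, 2 when Ctrl PN replicate 1, 3 or 4 was, and 4 when HFD PN replicate 1 was. Of all genes, 9.39% passed 0.05 without HFD PN replicate 1 and 2.43% to 3.55% in the other fits of that sentence. Of 10 genes high in the fed liver, 0 passed 0.05 (median 0.06). Scd1, a fatty acid desaturase, and Srebf1, the lipogenic factor, differed by 0.41 and -0.34, and Pnpla3, a lipid droplet protein, by -0.11. Of 15 clock genes and outputs, measured because Pck1 and G6pc vary with the time of day, 0 passed (median 0.09). In this list 4 passed without HFD PN replicate 1, against 9.39% of all genes, and 4 with array weights, against 8.51%. Nfil3, a repressor under clock control, had a difference of 0.26 (limma unadjusted p = 0.108), and Clock and Arntl, which together form the core activator, had 0.32 (limma unadjusted p = 0.131) and 0.55 (SE 0.39, limma unadjusted p = 0.19). The Arntl difference came from HFD PN replicates 3 and 4, at 3.45 and 3.63. Every other liver of either group lay between 1.88 and 2.37. The hour at which each liver was taken is not stated in the labels.

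**Figure D4:**
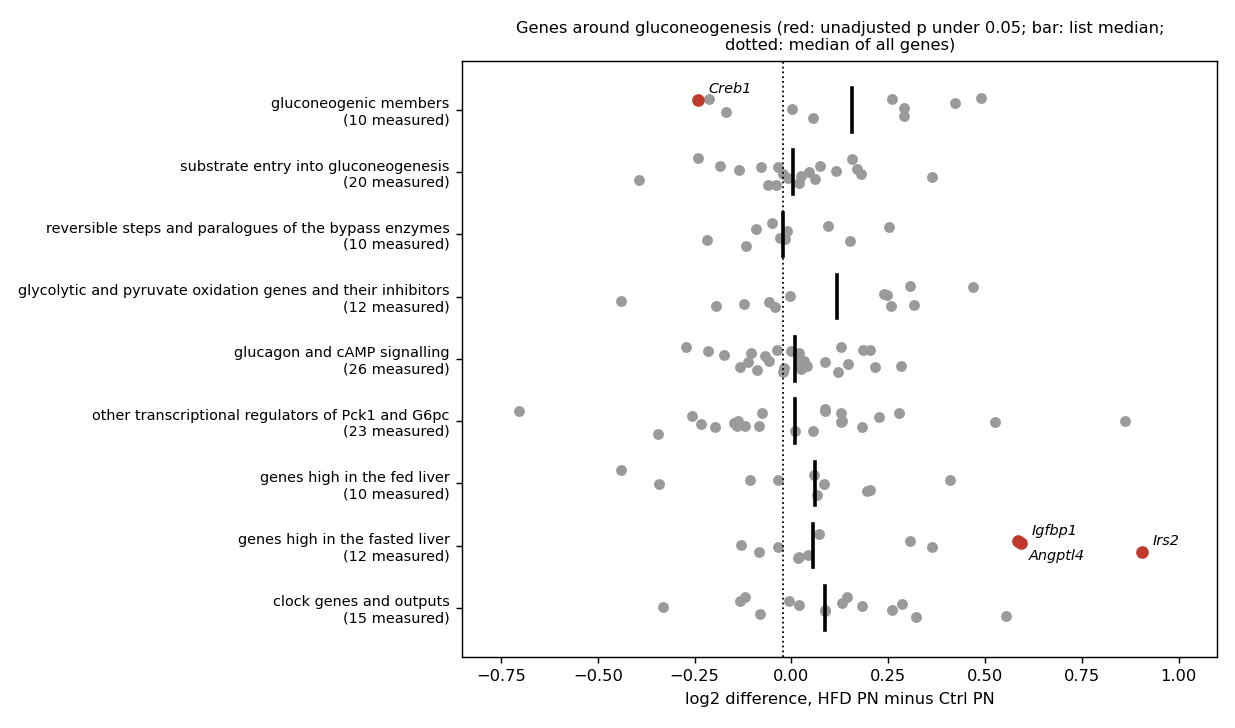
Log2 difference, HFD PN minus Ctrl PN, of each measured gene in the lists around gluconeogenesis, 1 point per gene, with a bar at each list median and a dotted line at the median of all genes (-0.02). Red points, labelled by gene, are the 4 with an unadjusted limma p under 0.05: Creb1 at -0.24, and Igfbp1, Angptl4 and Irs2 among the genes high in the fasted liver.

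Marker genes of the liver's cell types were measured beside these values. The 11 hepatocyte markers had a median difference of 0.04, with 0 at an unadjusted p under 0.05 in limma. The mean of 6 periportal hepatocyte markers, Pck1 among them, lay between 7.37 and 8.10 in HFD PN and between 7.20 and 7.80 in Ctrl PN (median difference 0.20, 0 of 6 passed). The 8 pericentral markers had a median of -0.13, with 0 passed. The endothelial, Kupffer cell and stellate lists lay on the lower side. The medians were -0.21 for 8 endothelial markers (8 of 8 below 0, 0 passed) and -0.24 for 8 Kupffer cell and macrophage markers (7 of 8 below 0, 0 passed). The median was also -0.24 for 8 stellate markers (5 of 8 below 0 and 3 above). Of these 8, 2 (Reln and Col3a1) were lower at an unadjusted p under 0.05 in limma, against 2.36% of all genes in that direction. The mean level of the endothelial markers was 3.66 to 4.16 in HFD PN and 3.82 to 4.37 in Ctrl PN, that of the Kupffer cell markers was 3.98 to 4.73 and 4.37 to 4.55, and that of the stellate markers was 3.22 to 3.71 and 3.61 to 3.94. Over all genes, 44.1% of the differences were above 0 and the median was -0.02. All 6 lymphocyte markers were above 0 (median 0.06), as were 4 of 5 neutrophil and 3 of 4 adipocyte markers (medians 0.05 and 0.06) and 2 of 5 cholangiocyte markers (median -0.0007), with 0 passed in each. Many of these markers were near the floor. The mean was under 1.55, the median of all clusters, for 3 of the 6 lymphocyte and 2 of the 5 neutrophil markers. The same held for 2 of the 4 adipocyte markers and 1 of the 5 cholangiocyte markers. The mean of the neutrophil markers was 2.56 in HFD PN replicate 1, the array on which Pcx and Crtc2 were lowest, and 1.38 to 1.598 in the other 7 livers. In that liver S100a8 was at 3.52, S100a9 at 3.61, Ly6g at 2.20, Camp at 1.86 and Mpo at 1.61. All but Mpo were highest there. In the other HFD PN livers S100a8 was 1.67 to 1.97 and S100a9 1.63 to 1.65. Ly6g was 1.03 to 1.26 in them, Camp 0.98 to 1.05 and Mpo 1.48 to 1.56. Slc4a1, the single erythroid marker measured, lay between 1.14 and 1.42 in HFD PN and between 1.47 and 2.18 in Ctrl PN, without overlap (limma unadjusted p = 0.0267). That pattern, HFD PN below Ctrl PN without overlap, was found for 2.10% of all genes. Among the markers it was also found for Reln, Col3a1 and Krt19, and Arg1 was higher in HFD PN without overlap. In either direction, the groups did not overlap for 2.82% of all genes. Slc4a1 was under 1.55 in every HFD PN liver and in Ctrl PN replicates 2 and 4. The part of the cell types in the gluconeogenic values was not tested.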

How the data were processed

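Liver RNA of 4 HFD PN and 4 Ctrl PN male offspring was measured on 1 Affymetrix mouse gene array each. The authors deposited log2 values made with RMA in R 3.4.3, which corrects the background, equalises the probe distributions and summarises the probes of a transcript cluster. Genome build of the probes: not given in the sources used here. Probe-level files were not used, so these steps could not be varied. Arrays have no read depth, and their number limits the precision.

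Of 41345 clusters, 23521 named 1 gene in the platform annotation, 1820 several, and 16004 had no name in the table used here. Symbols were updated through RefSeq identifiers (23328 matched). A gene with several clusters took that of the highest mean, which left 22180 genes. In R 4.3.3, limma 3.58.1 fitted these (lmFit, eBayes, no covariate), with p adjusted over all of them by Benjamini-Hochberg. The methods' exploratory p of 0.01 was the threshold, and 0.05 is given beside it. For single genes, an exact two-sided permutation test used all 70 splits of the livers. Fits were tested on simulated arrays. Differences are HFD PN minus Ctrl PN.

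The 10 genes, the lists and the alternatives were chosen with earlier results of these data known. Beyond the 10 genes, the text names list genes at an unadjusted p under 0.01, up to 3 more per list by smallest p, and the 3 genes most like Pck1, G6pc and Ppargc1a. Gckr, Mlxipl, Gcgr and Foxo1 are named from the fits without single livers. Reln, Col3a1, Krt19, Arg1, S100a8, S100a9, Ly6g, Camp, Mpo and Slc4a1 are named from the markers. All of these were named after their values were seen. Same-numbered livers deviated together at r = -0.30, 0.29, -0.41 and 0.16, so the numbers were not taken to pair them. The alternatives were a gene's clusters averaged, quantile normalization, median centring, dim genes left out, a trended and robust variance, array weights, a replicate block, each liver left out, both arrays that stood apart left out, and the methods' t-test in both forms. Promoters were taken from a RefSeq table (GRCm38.p6), in which Crtc2 was not matched.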

Additional observations from a re-analysis of the deposited data

Results flagged for a closer look

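In 20 groups of 4 livers (10 genes in each group), the gap of the highest or lowest liver to its nearest neighbour was set against the group's range. By chance about 1 in 20 groups exceeds the limit used, Dixon's 95% critical value for 4 samples. Pcx in HFD PN replicate 1 was 4.62 on the log2 scale, against 6.15 to 6.44 in the other HFD PN livers, and the gap was 0.843 of the range. Crtc2 in HFD PN replicate 1 was 3.12, against 4.65 to 4.83 in the others, with a gap of 0.896 of the range. Both values are from the array that correlated least with the rest.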

How the results depend on the processing

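Of the 18 alternatives, all kept the signs of Pck1, G6pc, Ppargc1a, Creb1, Sirt1 and Klf15. Under each of them 0 of the 10 genes passed an unadjusted p of 0.01 or an adjusted p of 0.05. The difference of Creb1 ran from -0.28 to -0.19, with limma or t-test p from 0.0128 to 0.219. The number of genes at an unadjusted p under 0.05 was 0 with median centring, 0 with quantile normalization, 0 with dim genes left out, 0 with a trended and robust variance, and 2 with array weights (Creb1 and Ppargc1a, where 8.51% of all genes passed against 3.49%). With single livers left out it ran from 0 to 3. With the replicate block it stayed at 1 (2.86% of all genes), with Sirt1 (limma unadjusted p = 0.0358) in place of Creb1 (limma unadjusted p = 0.0655). Signs turned for genes with small differences. Crtc2 was at -0.0355 with quantile normalization and from -0.17 to 0.40 with single livers left out. Fbp1 was at -0.0405 with array weights, at -0.0829 without both arrays that stood apart and from -0.0474 to 0.13 with single livers left out. Pcx was at 0.0771 with array weights, at 0.0014 without both arrays and from -0.41 to 0.25 with single livers left out, and Slc37a4 ran from -0.48 to 0.0837. The cause was not tested.

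Over all genes, limma put 43 higher and 80 lower in HFD PN at 0.01 unadjusted. With median centring these were 52 and 48, with dim genes left out 18 and 21, with array weights 241 and 185, without HFD PN replicate 1 393 and 99, and without both arrays 375 and 121. The replicate block gave 32 and 41, and single livers left out gave 29 and 52 (HFD PN replicate 2), 51 and 51 (HFD PN replicate 3), 14 and 36 (HFD PN replicate 4), 18 and 54 (Ctrl PN replicate 3) and 21 and 75 (Ctrl PN replicate 1), and a trended and robust variance 21 and 111. The methods' t-test gave 51 and 144 and its form for unequal variances 28 and 100, and each gave 0 of the 10 genes at 0.01 and 1 at 0.05, before and 0 after Benjamini-Hochberg adjustment. At 0.05 unadjusted, 4.33% and 3.44% of all genes passed in these forms.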
